A study of Mus musculus with 12 samples.

Results

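Genes of the unfolded protein response and the integrated stress response were followed through 4 treatment groups of mouse mammary tumours. The 10 genes are Hspa5, Hsp90b1, Sdf2l1, Herpud1, Xbp1, Atf4, Ddit3, Trib3, Asns and Chac1. They were taken by symbol from a deposited table of 41009 gene symbols. All 10 members were present and all 10 passed the filter on low values, which left 14306 genes to test. The tumours grew from mCherry-labelled 4T1 cells, a breast cancer line derived from this mouse strain, placed in the fat pad of the breast of female BALB/c animals. The mice were 4 to 5 weeks old per the labels and were randomised on day 7 after the cells were injected, then treated intraperitoneally. The groups were VHH-OD-PD-1-Fc at 4.3 mg/kg, VHH-PD-1-Fc at 2.6 mg/kg, VHH-OD-Fc at 3.5 mg/kg and Ctrl-Fc at 5 mg/kg (Ctrl below), with 3 bulk RNA-seq libraries each. All 4 agents carry an Fc, the constant part of an antibody, so Ctrl tumours received an Fc protein too. A VHH, or nanobody, is a small antibody fragment made of a single domain. What OD stands for is not given in the labels. The design text of the series names a different experiment, LLC tumours given digoxin, and the groups here follow the labels of the libraries. The host mice kept their own immune and stromal cells, and each library mixes these with the tumour cells, so that fewer cells of a type and less RNA per cell cannot be told apart. Whether each library came from its own animal is not stated, so the p-values describe spread among libraries, part or all of which could be technical.

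Secreted and membrane proteins fold in the endoplasmic reticulum (ER). When unfolded proteins build up there, the sensors IRE1, PERK and ATF6 start the unfolded protein response: IRE1 splices Xbp1 mRNA, ATF6 is cut to release a transcription factor, and PERK phosphorylates eIF2alpha. The last step is shared with kinases that sense amino acid shortage, haem shortage or viral RNA, and is called the integrated stress response. It lowers translation in general while raising that of Atf4. ATF6 and spliced XBP1 raise ER chaperones and degradation factors, and ATF4 raises genes of amino acid supply, redox balance and feedback. In tumours both arms are known from poor supply of oxygen and nutrients and from cells that secrete heavily. RNA-seq values of whole genes do not show Xbp1 splicing, eIF2alpha phosphorylation or Atf4 translation.

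The promoters of the members were searched for motifs known from the 2 arms. RefSeq promoter windows (GRCm38.p6, 250 bases before to 50 after each start) matched 10 of 10 members. Both strands were searched for 4 motifs. The ER stress element ERSE, bound by ATF6 and XBP1 together with NF-Y, was taken as CCAAT and CCACG with 9 bases between. ERSE-II was taken as ATTGG and CCACG with 1 base between, the UPRE core as TGACGTGG and the C/EBP-ATF composite site, through which ATF4 acts, as TGATGNAA. No match overlapped another. The ERSE occurred in Hspa5 (from -65 to -47 relative to the start) and at 2 places in Hsp90b1 (-212 to -194 and -107 to -89), and in 0.119% of all 32851 windows. ERSE-II occurred in Herpud1 (-52 to -42) and in 0.0365% of windows. The C/EBP-ATF composite occurred in Trib3, Asns, Chac1 and Herpud1 and in 3.97% of windows. The UPRE core occurred in none of the 10 members and in 0.676% of windows. The windows of Xbp1, Atf4, Ddit3 and Sdf2l1 held none of these letters. The 5 windows below are shown because Hspa5, Hsp90b1, Asns and Chac1 had the largest differences among the members and Herpud1 holds a motif of each arm. Capitals mark the fixed letters of the motifs, and sequences run 5′ to 3′ on the gene's strand.
Hspa5, chr2:34771840-34772139, plus strand: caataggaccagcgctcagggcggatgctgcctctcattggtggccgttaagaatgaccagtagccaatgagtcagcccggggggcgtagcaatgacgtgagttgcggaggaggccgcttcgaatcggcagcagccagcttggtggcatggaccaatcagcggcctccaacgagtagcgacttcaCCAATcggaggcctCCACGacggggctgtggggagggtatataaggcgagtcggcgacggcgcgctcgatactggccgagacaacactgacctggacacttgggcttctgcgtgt
Hsp90b1, chr10:86705395-86705694, minus strand: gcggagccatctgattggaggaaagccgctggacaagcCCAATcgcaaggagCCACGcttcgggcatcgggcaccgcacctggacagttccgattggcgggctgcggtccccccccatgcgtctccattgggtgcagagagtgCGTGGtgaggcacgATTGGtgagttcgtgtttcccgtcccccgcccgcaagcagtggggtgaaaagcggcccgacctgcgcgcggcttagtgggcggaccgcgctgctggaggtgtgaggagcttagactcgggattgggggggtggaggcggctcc
Herpud1, chr8:94386179-94386478, plus strand: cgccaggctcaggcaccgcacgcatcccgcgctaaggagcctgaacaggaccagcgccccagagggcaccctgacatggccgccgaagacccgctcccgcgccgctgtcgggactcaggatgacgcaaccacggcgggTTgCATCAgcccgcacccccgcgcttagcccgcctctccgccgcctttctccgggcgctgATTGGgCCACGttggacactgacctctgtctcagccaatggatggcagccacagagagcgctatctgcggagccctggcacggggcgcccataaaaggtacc
Asns, chr6:7693160-7693459, minus strand: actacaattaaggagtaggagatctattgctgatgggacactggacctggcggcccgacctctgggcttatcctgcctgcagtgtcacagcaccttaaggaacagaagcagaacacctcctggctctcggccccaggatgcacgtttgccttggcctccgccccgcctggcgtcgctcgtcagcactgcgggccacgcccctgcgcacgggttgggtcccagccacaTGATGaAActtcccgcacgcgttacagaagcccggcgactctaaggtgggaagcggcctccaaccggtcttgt
Chac1, chr2:119350992-119351291, plus strand: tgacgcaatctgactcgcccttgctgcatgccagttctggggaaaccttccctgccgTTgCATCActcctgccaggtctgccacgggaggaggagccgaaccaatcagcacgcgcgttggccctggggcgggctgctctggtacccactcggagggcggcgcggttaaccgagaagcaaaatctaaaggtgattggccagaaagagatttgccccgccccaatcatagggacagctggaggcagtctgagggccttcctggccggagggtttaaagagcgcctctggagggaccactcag
The motif in Asns lay close to the start, from -23 to -16, and those of Chac1 (-193 to -186) and Herpud1 (-112 to -105) lay on the minus strand of the window.

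Estimated depth was 21900000 to 30800000 fragments per library. The sum of FPKM was 388142 to 401179 in the 6 libraries with the PD-1 arm and 327792 to 345596 in the 6 without it, and the first principal component (52.8% of the variance) separated these sets. No batch is labelled, and its effect, if one followed the PD-1 constructs, cannot be told apart from theirs. Fold changes of VHH-PD-1-Fc over Ctrl also dropped with transcript length, with a median log2 fold change of 0.18 in the shortest of 4 length classes of genes and -0.37 in the longest. The VHH-OD-PD-1-Fc libraries lay very close together. Their estimated fragments per gene varied by a median of 2.01 times the counting noise, where noise alone gives 0.693, against 29.9 in VHH-PD-1-Fc, 7.62 in VHH-OD-Fc and 9.67 in Ctrl. Their members had log2 SDs of 0.00356 to 0.107 (median 0.0431), against 0.198 to 0.867 (median 0.463) in VHH-PD-1-Fc, 0.0521 to 0.735 (median 0.144) in VHH-OD-Fc and 0.0902 to 0.846 (median 0.227) in Ctrl. They were kept as 3 samples in the fit. Some calls in the fit of all 12 libraries rest on them. For members and pathway lists, such calls are given with their outcome when these libraries enter as a single pooled sample. Calls of cell type markers are given without that outcome. Passes that appear only in alternative fits, such as those leaving out 1 library, carry no such value and count these libraries as separate samples. Ctrl replicate 1 stood apart by low markers of tumour epithelium (summed FPKM 1255, where Ctrl replicates 2 and 3 had 2988 and 2291) and high plasma cell markers (2793, where they had 239 and 446). VHH-OD-Fc replicate 2 stood apart by skeletal muscle markers (2147, where replicates 1 and 3 had 13.0 and 286), and VHH-PD-1-Fc replicate 2 by macrophage markers (2981, where replicates 1 and 3 had 1034 and 1546).

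Levels of the members spanned a wide range. Over the 12 libraries Hspa5 averaged 296 FPKM, above 98.8% of the genes tested, followed by Hsp90b1 at 111, Atf4 at 95.1, Xbp1 at 63.4 and Sdf2l1 at 40.2 FPKM. Asns, Trib3, Herpud1 and Ddit3 averaged 21.7, 20.1, 19.8 and 16.1 FPKM. Chac1 was lowest at 8.54 FPKM, above 60.3% of the genes tested, and varied most, by 6.61-fold between its highest and lowest library. Atf4 varied least, by 1.90-fold.

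**Figure D1:**
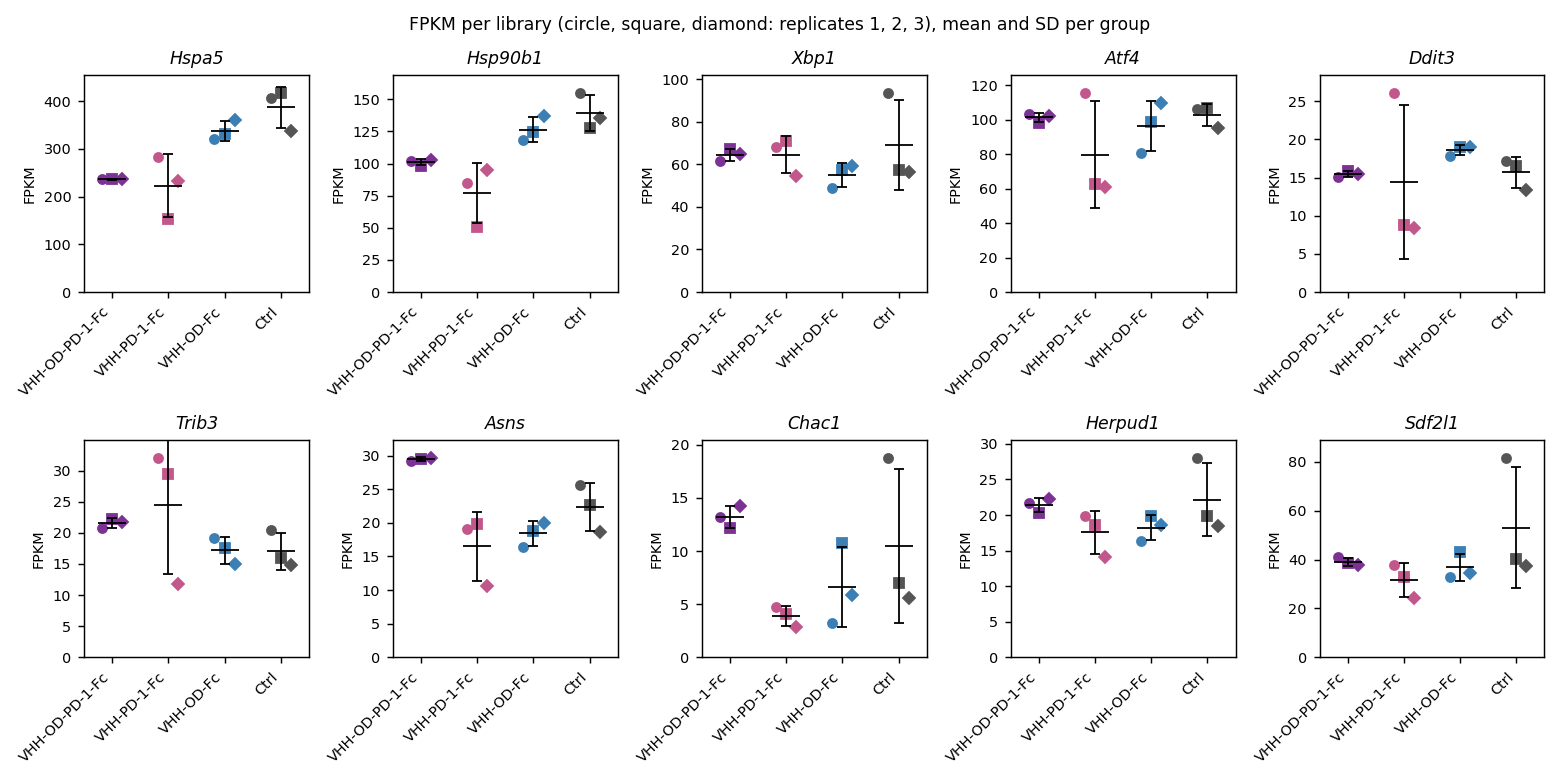
FPKM (linear axis from 0) of each of the 10 genes in each library, with groups along the x axis; symbols mark replicates 1 to 3, and the bars give the mean and SD of 3 libraries. Hspa5 lies at 153 to 283 FPKM in the 6 libraries with the PD-1 arm and at 321 to 418 in the 6 without it, and Chac1 lies at 12.1 to 14.3 FPKM in VHH-OD-PD-1-Fc and 2.84 to 4.71 in VHH-PD-1-Fc.

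The ER chaperone Hspa5 fell in both groups given a construct with the PD-1 arm, and Hsp90b1 fell in VHH-PD-1-Fc, each relative to Ctrl. Hspa5 encodes BiP, the Hsp70 chaperone that binds unfolded proteins in the ER and holds the stress sensors inactive. Hspa5 had 237, 236 and 236 FPKM in VHH-OD-PD-1-Fc libraries, 283, 153 and 233 in VHH-PD-1-Fc libraries and 321, 332 and 361 in VHH-OD-Fc libraries, against 405, 418 and 337 in Ctrl libraries. Every library with the PD-1 arm lay below every library without it, while the 2 groups with the arm overlapped each other, as did the 2 groups without it. Hspa5 fell by 0.70 on the log2 scale in VHH-OD-PD-1-Fc relative to Ctrl (SE 0.18, limma adjusted p = 0.0102) and by 0.83 in VHH-PD-1-Fc relative to Ctrl (SE 0.18, adjusted p = 0.00395). Means were 236 ± 0.585, 223 ± 65.3 and 387 ± 43.6 FPKM in VHH-OD-PD-1-Fc, VHH-PD-1-Fc and Ctrl (SD, n = 3 each), which made the ratio of means to Ctrl 0.611 and 0.577. Against VHH-OD-Fc, Hspa5 also fell by 0.51 in VHH-OD-PD-1-Fc (SE 0.18, adjusted p = 0.0432). This call held in 11 of 24 alternative settings. It was lost with 1 pooled VHH-OD-PD-1-Fc sample (adjusted p = 0.279), with no filter (0.0849), with median-of-ratios scaling (0.0973), with the length and GC trend removed (0.124), with the replicate number as a block (0.0558) and in 8 of the 12 fits that left out 1 library.

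Hsp90b1 encodes GRP94, the ER member of the Hsp90 family, which folds integrins and Toll-like receptors. Hsp90b1 had 102, 98.2 and 103 FPKM in VHH-OD-PD-1-Fc libraries, 85.0, 50.4 and 95.3 in VHH-PD-1-Fc libraries and 118, 124 and 137 in VHH-OD-Fc libraries, against 155, 128 and 136 in Ctrl libraries. VHH-PD-1-Fc libraries were lowest, VHH-OD-PD-1-Fc libraries came next with no overlap, and the VHH-OD-Fc and Ctrl libraries overlapped at the top. Hsp90b1 fell by 0.90 in VHH-PD-1-Fc relative to Ctrl (SE 0.19, limma adjusted p of 0.00338). For VHH-OD-PD-1-Fc its log2 fold change over Ctrl was -0.46 (SE 0.19), which did not pass the test (adjusted p = 0.0734). It passed when VHH-PD-1-Fc replicate 2 (adjusted p = 0.00283) or replicate 3 (adjusted p = 0.0421) was left out of the shared estimate of the spread. It also passed with TPM scaling (0.0137), quantile normalization (0.0179), only the compared groups fitted (0.00391) or library quality weights (0.000331). Leaving out the 3 libraries that stood apart gave 0.0115. With VHH-OD-PD-1-Fc as 1 pooled sample 0 members passed there. Relative to VHH-OD-Fc the log2 fold change of Hsp90b1 was -0.32 (SE 0.19, adjusted p = 0.203, and 0.0176 without VHH-PD-1-Fc replicate 2). That comparison passed too with TPM scaling (0.0403), only the compared groups fitted (0.00642), quality weights (0.0134) or those 3 libraries left out (0.0199). Hspa5 and Hsp90b1 transcripts are 3672 and 3222 bases long, in length class 3 of 4 (2877 to 4385 bases), where the median log2 fold change of all genes was -0.22 for VHH-OD-PD-1-Fc and -0.27 for VHH-PD-1-Fc over Ctrl. With the trend on length and GC content removed, the log2 fold changes over Ctrl were -0.54 in VHH-OD-PD-1-Fc (adjusted p = 0.032) and -0.65 in VHH-PD-1-Fc (adjusted p = 0.0121) for Hspa5. For Hsp90b1 in VHH-PD-1-Fc the value was then -0.70 (adjusted p = 0.0056). In 24 of 24 alternative settings both chaperones stayed called as lower in VHH-PD-1-Fc than in Ctrl, with adjusted p of 0.000807 to 0.0382 for Hspa5 and 0.000867 to 0.0343 for Hsp90b1. The Hspa5 call in VHH-OD-PD-1-Fc over Ctrl held in 23 of 24, and was lost when VHH-OD-PD-1-Fc entered as 1 pooled sample (adjusted p = 0.143).

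Markers of other cell types were traced beside the 2 chaperones. Fibroblast markers had lower summed levels in both groups with the PD-1 arm than in Ctrl. Their 9 genes summed to 573 to 577 FPKM in VHH-OD-PD-1-Fc, 235 to 496 in VHH-PD-1-Fc and 740 to 1176 in VHH-OD-Fc, against 592 to 870 in Ctrl. Of the 9, 2 were called lower in VHH-OD-PD-1-Fc and 8 in VHH-PD-1-Fc relative to Ctrl, beside 27.1% and 32.3% of all genes. Fap stayed under 1 FPKM in both groups with the PD-1 arm. Within VHH-PD-1-Fc each of the 9 was lowest in replicate 1, while Hspa5 and Hsp90b1 were lowest in replicate 2. In VHH-OD-Fc all 9 had a positive sign relative to Ctrl (median 0.41), where Hspa5 and Hsp90b1 stood at -0.19 and -0.14. Endothelial markers summed to 16.4 to 18.5 FPKM in VHH-OD-PD-1-Fc and 14.3 to 18.8 in VHH-PD-1-Fc, against 24.9 to 35.7 in Ctrl. Of the 5 tested, 4 were called lower in each group, beside the same 27.1% and 32.3% of all genes. The part of these cells in the chaperone result was not tested. Markers of tumour epithelium (10 genes, including Epcam and Krt8) summed to 2723 to 2796 FPKM in VHH-OD-PD-1-Fc and 2111 to 3904 in VHH-PD-1-Fc, against 1255 to 2988 in Ctrl, none of them called lower.

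Sdf2l1, Herpud1 and Xbp1 passed no test between groups in the fit of all 12 libraries. Sdf2l1, a partner of ER DNAJ chaperones that limits aggregation, had 40.8, 38.5 and 37.9 FPKM in VHH-OD-PD-1-Fc libraries, 37.9, 32.8 and 24.3 in VHH-PD-1-Fc libraries and 33.0, 43.1 and 34.5 in VHH-OD-Fc libraries, against 81.6, 40.4 and 37.4 in Ctrl libraries. Ctrl replicate 1 stood far above all other libraries, and the groups overlapped. Its log2 fold change over Ctrl was -0.66 in VHH-PD-1-Fc (SE 0.26, adjusted p = 0.055), and it passed without Ctrl replicate 2 (0.0439), Ctrl replicate 3 (0.0296) or VHH-PD-1-Fc replicate 1 (0.0421). Without Ctrl replicate 1 it was -0.31 (adjusted p = 0.176). Herpud1, a membrane protein of ER-associated degradation, had 21.6, 20.3 and 22.3 FPKM in VHH-OD-PD-1-Fc libraries, 19.9, 18.6 and 14.1 in VHH-PD-1-Fc libraries and 16.3, 19.8 and 18.6 in VHH-OD-Fc libraries, against 28.0, 19.9 and 18.5 in Ctrl libraries. Xbp1, the transcription factor whose mRNA IRE1 splices, had 61.5, 67.0 and 65.1 FPKM in VHH-OD-PD-1-Fc libraries, 68.2, 70.9 and 54.8 in VHH-PD-1-Fc libraries and 48.8, 57.5 and 59.3 in VHH-OD-Fc libraries, against 93.7, 57.2 and 56.3 in Ctrl libraries. For these 3 genes Ctrl replicate 1 was the highest library of all 12. The direction of Xbp1 over Ctrl was not stable: its log2 fold change was -0.06 in both VHH-OD-PD-1-Fc and VHH-PD-1-Fc, and leaving out Ctrl replicate 1 turned these to 0.18 and 0.18, neither passing.

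Plasma cells, which secrete antibody and use XBP1, were traced beside these genes by 10 markers. Their summed level was 158 to 164 FPKM in VHH-OD-PD-1-Fc, 134 to 253 in VHH-PD-1-Fc and 249 to 1437 in VHH-OD-Fc, against 239 to 2793 in Ctrl. The 2 libraries highest in these markers were Ctrl replicate 1, with Igkc (immunoglobulin kappa) at 2540 FPKM and Jchain at 67.7, and VHH-OD-Fc replicate 2, with Igkc at 1182 and Jchain at 37.1. In VHH-OD-Fc, replicate 2 was also the highest of its group in Sdf2l1, Herpud1 and Chac1, though not in Xbp1. Tnfrsf17 stayed under 1 FPKM in all 4 groups, and Mzb1 reached 1.76 FPKM in Ctrl replicate 1. Sdc1, which epithelium expresses too, was lowest in Ctrl replicate 1 at 83.9 FPKM. The part of plasma cells in the high values of Ctrl replicate 1 was not tested.

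Atf4, Ddit3 and Trib3 differed more among the 3 VHH-PD-1-Fc libraries than between groups. Atf4, the transcription factor at the centre of the integrated stress response, had 103, 98.4 and 102 FPKM in VHH-OD-PD-1-Fc libraries, 116, 62.6 and 61.0 in VHH-PD-1-Fc libraries and 80.9, 98.9 and 110 in VHH-OD-Fc libraries, against 106, 107 and 95.4 in Ctrl libraries. Ddit3 encodes CHOP, which promotes cell death under lasting stress, and had 15.1, 15.8 and 15.4 FPKM in VHH-OD-PD-1-Fc libraries, 26.1, 8.81 and 8.36 in VHH-PD-1-Fc libraries and 17.8, 19.1 and 19.0 in VHH-OD-Fc libraries, against 17.2, 16.5 and 13.4 in Ctrl libraries. In both genes VHH-PD-1-Fc replicate 1 was the highest library of all and replicates 2 and 3 were the lowest. With replicate 1 in the fit, the log2 fold changes of VHH-PD-1-Fc over Ctrl were -0.42 for Atf4 (adjusted p = 0.114) and -0.29 for Ddit3 (adjusted p = 0.466). Without it they were -0.72 (adjusted p = 0.00102) and -0.79 (adjusted p = 0.000331), while without replicate 3 they were -0.27 (adjusted p = 0.33) and -0.03 (adjusted p = 0.954). Without replicate 1, VHH-OD-PD-1-Fc over VHH-PD-1-Fc stood at 0.71 for Atf4 (adjusted p = 0.0225) and 0.78 for Ddit3 (adjusted p = 0.00882). Ddit3 then also passed as lower in VHH-OD-PD-1-Fc than in VHH-OD-Fc (-0.25, adjusted p = 0.0495). Both genes stood near 0 in VHH-OD-PD-1-Fc relative to Ctrl, at -0.02 (95% interval -0.48 to 0.44) for Atf4 and -0.01 (-0.71 to 0.68) for Ddit3.

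Trib3, a pseudokinase that ATF4 and CHOP raise and that dampens both, split the VHH-PD-1-Fc libraries in another way. Trib3 had 20.7, 22.3 and 21.8 FPKM in VHH-OD-PD-1-Fc libraries, 32.0, 29.4 and 11.8 in VHH-PD-1-Fc libraries and 19.1, 17.5 and 14.9 in VHH-OD-Fc libraries, against 20.4, 15.9 and 14.8 in Ctrl libraries. In VHH-PD-1-Fc, replicate 1 and replicate 2 were the 2 highest libraries of all and replicate 3 the lowest. The log2 fold change of VHH-PD-1-Fc over Ctrl was 0.39 (SE 0.29, adjusted p = 0.285), without replicate 3 it was 0.83 (adjusted p = 0.00128), and without replicate 1 it was 0.14 (adjusted p = 0.704). All 3 VHH-OD-PD-1-Fc libraries lay just above the highest Ctrl library, with a log2 fold change of 0.34 (SE 0.29, adjusted p = 0.369, and 0.0479 without VHH-PD-1-Fc replicate 3).

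Asns and Chac1, which act in amino acid and glutathione metabolism and are targets of ATF4, were higher in VHH-OD-PD-1-Fc than in VHH-PD-1-Fc libraries without overlap. Asns encodes asparagine synthetase. Asns had 29.1, 29.6 and 29.6 FPKM in VHH-OD-PD-1-Fc libraries, 19.1, 19.8 and 10.6 in VHH-PD-1-Fc libraries and 16.4, 18.8 and 20.0 in VHH-OD-Fc libraries, against 25.7, 22.7 and 18.6 in Ctrl libraries. VHH-OD-PD-1-Fc lay above all 9 other libraries. Asns rose by 0.65 on the log2 scale in VHH-OD-PD-1-Fc relative to VHH-OD-Fc (SE 0.20, adjusted p = 0.0241, 29.4 ± 0.281 against 18.4 ± 1.84 FPKM, SD, n = 3 each). Relative to VHH-PD-1-Fc its log2 fold change was 0.85 (SE 0.20, 95% interval 0.41 to 1.29), the smallest p of the 10 members there, and it did not pass (adjusted p = 0.0806). Relative to Ctrl it was 0.40 (SE 0.20, adjusted p = 0.13, and 0.0169 without VHH-PD-1-Fc replicate 3). VHH-PD-1-Fc over Ctrl stood at -0.45 (SE 0.20, adjusted p = 0.0834) and passed without VHH-PD-1-Fc replicate 1 (0.0485) or replicate 2 (0.0402), while without replicate 3 it was -0.18 (adjusted p = 0.268). The call against VHH-OD-Fc was lost when VHH-OD-PD-1-Fc entered as 1 pooled sample (adjusted p = 0.213), with TPM scaling (0.0856), with the length and GC trend removed (0.0503), and without VHH-OD-Fc replicate 1 (0.0814), VHH-OD-Fc replicate 2 (0.0511) or any 1 of the VHH-OD-PD-1-Fc libraries (0.0597 to 0.0633).

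Chac1 encodes an enzyme that breaks down glutathione. Chac1 had 13.2, 12.1 and 14.3 FPKM in VHH-OD-PD-1-Fc libraries, 4.71, 4.08 and 2.84 in VHH-PD-1-Fc libraries and 3.23, 10.7 and 5.91 in VHH-OD-Fc libraries, against 18.8, 7.04 and 5.57 in Ctrl libraries. VHH-OD-PD-1-Fc exceeded all libraries of the other treatments, and Ctrl replicate 1 exceeded VHH-OD-PD-1-Fc. The log2 fold change of VHH-OD-PD-1-Fc over VHH-PD-1-Fc was 1.56 (SE 0.41, 95% interval 0.66 to 2.46, adjusted p = 0.106), the largest of the 10 members in size, with a ratio of means of 3.41. It was 1.02 over VHH-OD-Fc (SE 0.41, adjusted p = 0.0692) and 0.48 over Ctrl (SE 0.41, adjusted p = 0.364). VHH-PD-1-Fc over Ctrl stood at -1.08 (SE 0.41) with an adjusted p of 0.0501, just over the threshold, and passed without Ctrl replicate 3 (0.0287), VHH-OD-Fc replicate 1 (0.0361) or VHH-OD-Fc replicate 2 (0.0333). Without Ctrl replicate 1 it was -0.60 (adjusted p = 0.184), and the value of VHH-OD-PD-1-Fc over Ctrl was 0.96 (adjusted p = 0.05, not under the threshold). Without Ctrl replicate 1 the difference of VHH-OD-PD-1-Fc passed against both VHH-PD-1-Fc (adjusted p = 0.0456) and VHH-OD-Fc (adjusted p = 0.0231). Without VHH-OD-Fc replicate 2 it passed against VHH-OD-Fc too (adjusted p = 0.0249). Neutrophil markers differed in the same direction as Asns and Chac1 between the groups with the PD-1 arm: their 8 genes summed to 1939 to 1993 FPKM in VHH-OD-PD-1-Fc and 417 to 1227 in VHH-PD-1-Fc, all 8 with a positive sign and 0 called. They summed to 481 to 1985 FPKM in VHH-OD-Fc and 655 to 953 in Ctrl. Skeletal muscle markers summed to 192 to 195 FPKM in VHH-OD-PD-1-Fc and 5.77 to 30.8 in VHH-PD-1-Fc, with 0 of 8 called. In the groups without the PD-1 arm they ranged widely, from 13.0 to 2147 FPKM in VHH-OD-Fc and 8.23 to 284 in Ctrl. The part of these cells was not tested.

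**Figure D2:**
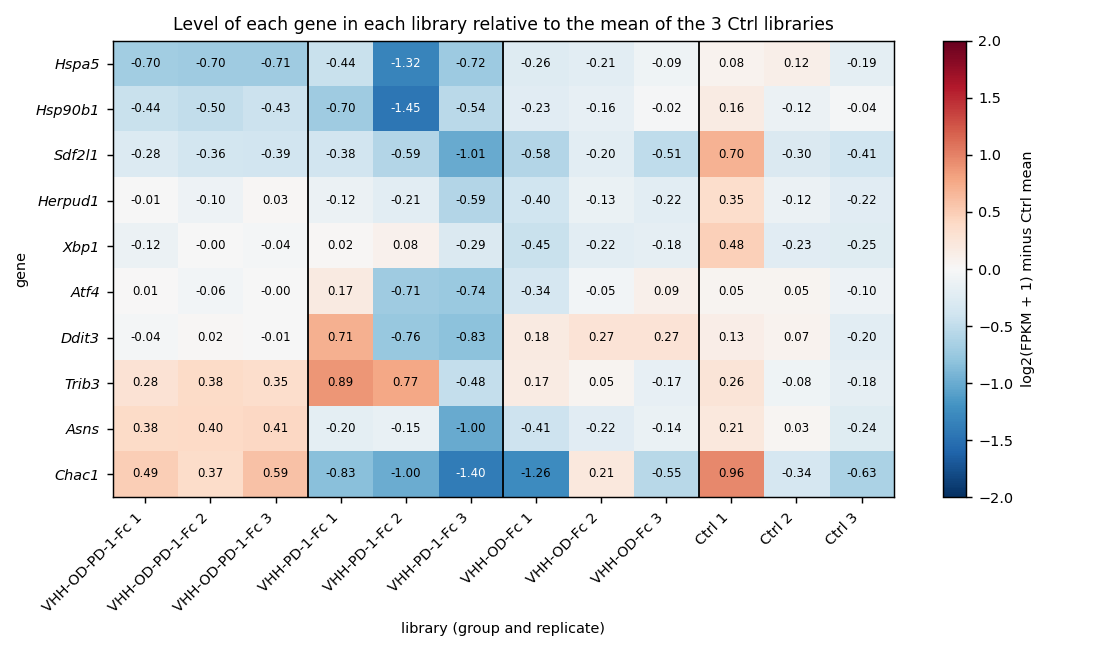
Each cell gives log2(FPKM + 1) of a gene (row) in a library (column) minus the mean of the 3 Ctrl libraries, on a colour scale from -2 to 2. The chaperones Hspa5 and Hsp90b1 are negative in all 6 libraries with the PD-1 arm, Asns and Chac1 are positive in VHH-OD-PD-1-Fc and negative in VHH-PD-1-Fc, and Ctrl replicate 1 is the highest Ctrl library for Chac1 (0.96) and Sdf2l1 (0.70).

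Counted over the members, the comparison of VHH-PD-1-Fc with Ctrl gave 2 lower (Hspa5 and Hsp90b1) and 0 higher of 10 at an adjusted p under 0.05, beside 32.3% lower and 14.6% higher among all genes tested (46.9% in either direction). The share of members called was not above that background. Their median log2 fold change was -0.44, against -0.19 over all genes, with 9 negative and 1 positive. That median rested on single libraries and on the scaling: it was -0.76 without VHH-PD-1-Fc replicate 1, -0.22 without VHH-PD-1-Fc replicate 3 and -0.22 after median-of-ratios scaling. Libraries did not overlap for 3 members, all lower in VHH-PD-1-Fc (Hspa5, Hsp90b1 and Chac1), beside 33.7% of all genes (49.1% in either direction). The scaling moved the count: rescaled to TPM, which shifted the median of all genes to -0.38, 7 members were called lower, and with the length and GC trend removed 5 were. Whole-table calls were 2092 higher and 4615 lower as deposited, 1339 and 6793 after TPM scaling, 3145 and 2879 after median-of-ratios scaling, and 2815 and 2593 after quantile normalization. With the length and GC trend removed they were 1699 higher and 3841 lower of 13775 genes.

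The comparison of VHH-OD-PD-1-Fc with Ctrl gave 1 member lower (Hspa5) and 0 higher of 10, beside 27.1% lower and 15.1% higher of all genes (42.2% in either direction). Asns and Trib3 had all 3 libraries above Ctrl and Hspa5 and Hsp90b1 had all 3 below, beside 23% and 41.4% of all genes (64.4% in either direction). The members' median log2 fold change was -0.02, against -0.14 over all genes, and it turned to 0.10 without Ctrl replicate 1. Whole-table calls were 2158 higher and 3878 lower as deposited, and 3007 and 2593 after median-of-ratios scaling, under which Xbp1, Atf4, Ddit3 and Herpud1 turned from slightly negative to slightly positive (0.11 to 0.15, none called).

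The comparison of VHH-OD-PD-1-Fc with VHH-OD-Fc asked what the PD-1 arm added to the OD arm. It gave 1 member higher (Asns) and 1 lower (Hspa5) of 10, beside 15.4% higher and 24.5% lower of all genes (39.9% in either direction). Libraries did not overlap for 5 members that were higher (Xbp1, Trib3, Asns, Chac1 and Herpud1) and 3 that were lower (Hspa5, Hsp90b1 and Ddit3), beside 25.3% and 40.4% of all genes (65.7% in either direction). Ddit3 had a log2 fold change of -0.25 (SE 0.32, adjusted p = 0.55) and Xbp1 one of 0.23 (SE 0.18, adjusted p = 0.34). Median-of-ratios scaling turned the whole-table calls from 2209 higher and 3503 lower to 2889 and 2536, with 2 members called higher, Asns among them, and 0 lower, Hspa5 being at -0.38 (adjusted p = 0.0973). TPM scaling gave 0 members higher and 2 lower, beside 1365 higher and 5646 lower in the whole table.

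The comparison of VHH-OD-PD-1-Fc with VHH-PD-1-Fc asked what the OD arm added to the PD-1 arm, within the set of libraries that share that arm. No member passed limma's test, with 3 at an unadjusted p under 0.05 (Hsp90b1, Asns and Chac1), beside 0.839% of all genes called (0.538% higher and 0.301% lower). The members' median log2 fold change was 0.30, against 0.04 over all genes, and 9 of 10 were positive, Trib3 being the exception at -0.05. That median was 0.50 without VHH-PD-1-Fc replicate 1 and 0.16 without VHH-PD-1-Fc replicate 3. Libraries did not overlap for 4 members, all higher in VHH-OD-PD-1-Fc (Hsp90b1, Asns, Chac1 and Herpud1), beside 13.8% of all genes that were higher and 7.25% that were lower without overlap (21% in either direction). Leaving out 1 library gave between 0 and 3 calls: Atf4, Ddit3 and Asns without VHH-PD-1-Fc replicate 1, Asns without replicate 2 or replicate 3, and Chac1 without Ctrl replicate 1.

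VHH-OD-Fc set against Ctrl addressed the OD arm by itself. No member passed limma's test, none had an unadjusted p under 0.05, and 0% of all genes were called (449 of 14306 at an unadjusted p under 0.05). Log2 fold changes ran from -0.54 for Chac1 to 0.24 for Ddit3, with 8 of 10 negative and a median of -0.22, against -0.02 over all genes. Without Ctrl replicate 1 the median was -0.07 and Chac1 stood at -0.05. The 95% intervals reached from -1.44 to 0.93, with Chac1 the widest. Ddit3 was the member whose libraries did not overlap (17.8 to 19.1 against 13.4 to 17.2 FPKM), beside 3.5% of all genes higher and 6.7% lower without overlap (10.2% in either direction). Hspa5 had a log2 fold change of -0.19 (SE 0.18).

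The difference from additivity, which takes the VHH-OD-Fc and VHH-PD-1-Fc effects away from that of VHH-OD-PD-1-Fc (each relative to Ctrl), tested whether the OD arm acted alike with and without the PD-1 arm. The doses differ between the constructs, so the design is not strictly factorial. No member passed limma's test, beside 0.112% of all genes called (0.0909% positive and 0.021% negative). Chac1 had the largest value, 2.09 (SE 0.58, adjusted p = 0.205), and Asns followed with 1.10 (SE 0.28, adjusted p = 0.165). Together with Herpud1 (0.53, SE 0.23, adjusted p = 0.384) they made 3 members at an unadjusted p under 0.05. These comparisons share libraries: the Ctrl, VHH-OD-Fc and VHH-PD-1-Fc values above enter this difference too.

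**Figure D3:**
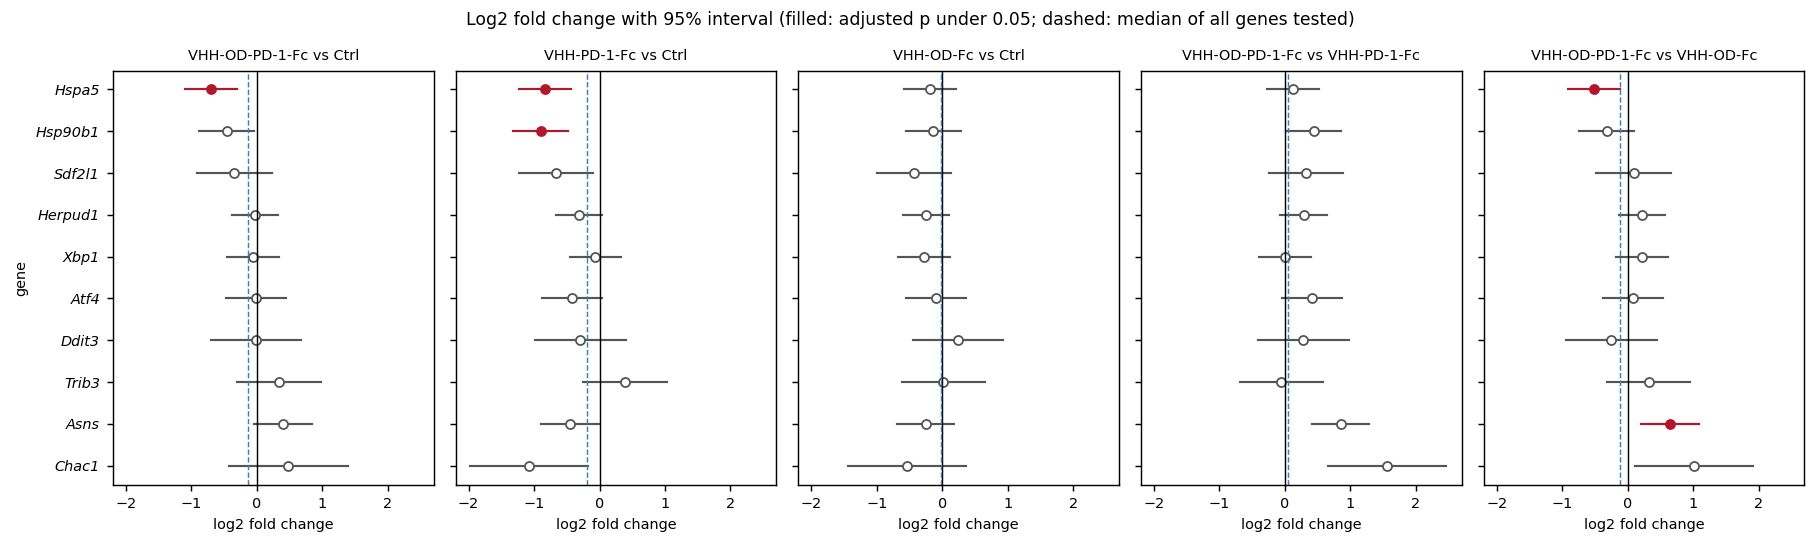
Log2 fold change of log2(FPKM + 1) for each gene in the 5 comparisons between pairs of groups, with 95% intervals; filled red points passed an adjusted p under 0.05 and the dashed line is the median of all 14306 genes. Hspa5 is filled in 3 panels, Hsp90b1 in 1 and Asns in 1, and Chac1 has the widest intervals.

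Within groups the members did not move as 1 block. Deviations from the group means on the log2 scale showed pairs of members with the same pattern in the VHH-PD-1-Fc libraries, where the spread was widest. Ddit3 deviated by 1.0, -0.47 and -0.53 in replicates 1 to 3 and Atf4 by 0.60, -0.28 and -0.32, so that both were high in replicate 1 alone. Trib3 deviated by 0.49, 0.38 and -0.87 and Asns by 0.25, 0.30 and -0.55, so that both were low in replicate 3 alone. Hsp90b1 deviated by 0.19, -0.55 and 0.36 and Hspa5 by 0.39, -0.49 and 0.11, so that both were low in replicate 2 alone, the library with the most macrophage signal. In Ctrl, replicate 1 stood out for Chac1, Sdf2l1, Xbp1 and Herpud1 at 0.96, 0.70, 0.48 and 0.35 above the mean of the group.

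Among 11766 named genes the 5 whose deviations from group means were most like those of Hspa5 over the 12 libraries were Snhg1, Cxcl1, Mrpl39, Ovgp1 and Hspd1, with Pearson's r of 0.985 to 0.972. Those most like Trib3 were Thap7, Sema4d, Eif4a3, Mlst8 and Tprn, with r of 0.992 to 0.951. These values describe the best of many genes, and the wide VHH-PD-1-Fc libraries weigh most in them.

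The other genes of these pathways were taken as 7 lists of 103 tested genes in all, without the 10 members. VHH-PD-1-Fc relative to Ctrl had 50 of the 103 called lower and 5 higher, beside 32.3% and 14.6% of all genes. The count was 68 lower and 0 higher after TPM scaling and 27 and 15 after median-of-ratios scaling. Of all 14306 genes, 6793 were lower and 1339 higher after TPM scaling, and 2879 and 3145 after median-of-ratios scaling. With the 3 libraries that stood apart left out the count was 34 lower and 1 higher, beside 3448 and 1832 of all genes. VHH-OD-PD-1-Fc relative to Ctrl had 29 lower and 9 higher, beside 27.1% and 15.1% of all genes. After median-of-ratios scaling VHH-OD-PD-1-Fc had 14 lower and 14 higher, beside 2593 and 3007 of all genes. When its libraries entered as 1 pooled sample, 3 were lower (Edem3, Syvn1 and Wfs1) and 0 higher. VHH-OD-PD-1-Fc relative to VHH-OD-Fc had 12 higher and 19 lower, beside 15.4% and 24.5% of all genes, and with the pooled sample 2 higher (Manf and Wars1) and 0 lower. VHH-OD-PD-1-Fc relative to VHH-PD-1-Fc had 1 higher and 0 lower of the 103, beside 0.538% and 0.301% of all genes. VHH-OD-Fc relative to Ctrl had 0, with 0 of all genes called. Pooling lowered the calls over the whole table too, so the pooled counts here and below cannot be set beside the shares of all genes.

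Of 18 ER chaperones and folding enzymes, 10 were called lower and 0 higher in VHH-PD-1-Fc relative to Ctrl (median -0.42), beside 32.3% lower among all genes. The other 8 did not pass, and 3 of the 18 had a positive sign. Pdia3, a disulfide isomerase for glycoproteins, had 160, 139 and 220 FPKM in VHH-PD-1-Fc libraries, against 313, 253 and 279 in Ctrl libraries (log2 fold change -0.72, SE 0.15, adjusted p = 0.00262). Pdia4, another isomerase, stood at -0.66 (adjusted p = 0.00129) and Dnajc3, a co-chaperone of BiP that also inhibits eIF2alpha kinases, at -0.82 (adjusted p = 0.00293). Of the 18, 5 were called lower in VHH-OD-PD-1-Fc than in Ctrl, among them Dnajc3 (-0.71) and Fkbp14 (-0.60), and 1 higher, beside 27.1% and 15.1% of all genes. With 1 pooled VHH-OD-PD-1-Fc sample none of the 18 passed (Dnajc3 0.12, Fkbp14 0.0984). The 1 higher gene was Manf, a secreted ER stress factor, with 66.0, 65.6 and 66.7 FPKM in VHH-OD-PD-1-Fc libraries, against 50.2, 39.3 and 42.3 in Ctrl libraries (0.59, SE 0.11, adjusted p = 0.00186). With the pooled sample Manf had an adjusted p of 0.0698 relative to Ctrl and 0.0417 relative to VHH-OD-Fc (log2 fold change 0.75).

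Of 12 sensors and regulators of the response, 6 were called lower and 0 higher in VHH-OD-PD-1-Fc relative to Ctrl (3 with a positive sign), beside 27.1% lower among all genes, and 1 was called lower with the pooled sample. In VHH-PD-1-Fc 9 were called lower and 0 higher relative to Ctrl (median -0.44, 2 with a positive sign), beside 32.3% lower among all genes. Ern1, which encodes IRE1, had 4.52, 4.40 and 4.72 FPKM in VHH-OD-PD-1-Fc libraries and 3.86, 3.08 and 5.26 in VHH-PD-1-Fc libraries, against 7.57, 7.04 and 7.64 in Ctrl libraries. Its log2 fold change was -0.60 in VHH-OD-PD-1-Fc (adjusted p = 0.00654, and 0.117 with the pooled sample) and -0.75 in VHH-PD-1-Fc (adjusted p = 0.00173). Wfs1, an ER membrane protein that holds ATF6 in check, stood at -0.62 in VHH-OD-PD-1-Fc (adjusted p = 0.000691, and 0.0395 with the pooled sample) and at -0.58 in VHH-PD-1-Fc (adjusted p = 0.000842). After median-of-ratios scaling 5 of the 12 were lower and 1 higher in VHH-PD-1-Fc, and 3 were lower in VHH-OD-PD-1-Fc. Of all 14306 genes, that scaling gave 2879 lower and 3145 higher in VHH-PD-1-Fc and 2593 lower in VHH-OD-PD-1-Fc. Eif2ak3, which encodes PERK, was called lower in VHH-OD-PD-1-Fc than in VHH-OD-Fc (-0.68, SE 0.15, adjusted p = 0.00484), a call lost with the pooled sample (adjusted p = 0.106).

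Of 15 genes of ER-associated degradation and export, 7 were called lower and 0 higher in VHH-PD-1-Fc relative to Ctrl. The shares of all genes there were 32.3% and 14.6%. In VHH-OD-PD-1-Fc 6 were lower and 3 higher relative to Ctrl, beside 27.1% and 15.1%, and most of these calls were lost with the pooled sample. Edem3, a mannosidase-like factor that marks glycoproteins for degradation, had 2.13, 2.01 and 2.18 FPKM in VHH-OD-PD-1-Fc libraries and 2.08, 1.08 and 1.81 in VHH-PD-1-Fc libraries, against 5.52, 4.60 and 4.94 in Ctrl libraries, and its call in VHH-OD-PD-1-Fc held with the pooled sample (adjusted p = 0.0446). Sec61b, a subunit of the ER translocon, rose by 0.67 in VHH-OD-PD-1-Fc relative to Ctrl (SE 0.12, adjusted p = 0.00179), with 80.5, 75.2 and 75.9 FPKM in VHH-OD-PD-1-Fc libraries, against 52.4, 47.2 and 45.4 in Ctrl libraries. That call was lost with the pooled sample (adjusted p = 0.0649). After median-of-ratios scaling 6 of the 15 were lower and 5 higher in VHH-PD-1-Fc, so this list has no single direction. Of all 14306 genes, 2879 were lower and 3145 higher there.

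Of 10 genes of the eIF2 kinases and the eIF2 machinery, 2 were higher and 2 lower in VHH-PD-1-Fc relative to Ctrl. The shares of all genes there were 14.6% and 32.3%. In VHH-OD-PD-1-Fc 2 were higher and 1 lower relative to Ctrl, beside 15.1% and 27.1%, and these calls were lost with the pooled sample. Eif2ak4, which encodes the amino acid sensor GCN2, had 2.41, 2.59 and 2.68 FPKM in VHH-OD-PD-1-Fc libraries and 2.36, 2.10 and 2.91 in VHH-PD-1-Fc libraries, against 4.22, 3.96 and 4.43 in Ctrl libraries (adjusted p = 0.00248 and 0.00137 for the groups in this order, and 0.0761 for VHH-OD-PD-1-Fc with the pooled sample). Among 14 other targets and partners of ATF4, 5 were lower and 2 higher in VHH-PD-1-Fc relative to Ctrl, beside 32.3% and 14.6% of all genes. In VHH-OD-PD-1-Fc 4 were lower and 1 higher relative to Ctrl, beside 27.1% and 15.1%, and these calls were lost with the pooled sample. Stc2, a secreted glycoprotein of the stress response, was lower in both, at -1.48 in VHH-OD-PD-1-Fc and -1.46 in VHH-PD-1-Fc (adjusted p = 0.0029 and 0.00267, and 0.0712 for VHH-OD-PD-1-Fc with the pooled sample). Eif4ebp1, an inhibitor of cap-dependent translation, was higher in both, at 0.57 and 0.36 (adjusted p = 0.00148 and 0.014, and 0.0637 for VHH-OD-PD-1-Fc with the pooled sample). Vegfa, a vascular growth factor that hypoxia also raises, fell by 1.79 in VHH-PD-1-Fc (SE 0.44, adjusted p = 0.0071).

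Of 15 genes of amino acid synthesis and transport, 6 were called lower and 0 higher in VHH-PD-1-Fc relative to Ctrl, beside 32.3% lower among all genes, and 14 of 15 had a positive sign in VHH-OD-PD-1-Fc relative to VHH-PD-1-Fc with 0 called. Mthfd2, a mitochondrial enzyme of one-carbon metabolism, had 9.64, 8.66 and 8.27 FPKM in VHH-OD-PD-1-Fc libraries and 5.37, 4.04 and 3.52 in VHH-PD-1-Fc libraries, with a log2 fold change of 0.90 (SE 0.20, adjusted p = 0.0654). Psat1, of serine synthesis, had 18.3, 18.3 and 18.1 FPKM in VHH-OD-PD-1-Fc libraries and 9.78, 11.6 and 9.77 in VHH-PD-1-Fc libraries (0.76, SE 0.17, adjusted p = 0.0654). The groups did not overlap in either gene. In VHH-OD-PD-1-Fc relative to VHH-OD-Fc, Psat1 rose by 0.65 (adjusted p = 0.0115), Psph by 0.60 (adjusted p = 0.00208) and Shmt2 by 0.62 (adjusted p = 0.0148), the first 2 being enzymes of serine synthesis and the last of the serine to glycine step. All 3 calls were lost with the pooled sample (adjusted p of 0.156 for Psat1, 0.0742 for Psph and 0.175 for Shmt2). With the 3 libraries that stood apart left out, 4 of the 15 passed as higher in VHH-OD-PD-1-Fc than in VHH-PD-1-Fc, beside 318 of all 14306 genes.

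The list of tRNA charging and export held 19 genes (18 cytosolic aminoacyl-tRNA synthetases and Xpot). In VHH-PD-1-Fc 11 were lower and 1 higher relative to Ctrl, beside 32.3% and 14.6% of all genes. After median-of-ratios scaling the counts were 4 and 2, beside 2879 lower and 3145 higher of all 14306 genes. In VHH-OD-PD-1-Fc 4 were lower and 1 higher relative to Ctrl, beside 27.1% and 15.1%, and these calls were lost with the pooled sample. Relative to VHH-PD-1-Fc, 18 of 19 had a positive sign in VHH-OD-PD-1-Fc (median 0.20, against 0.04 over all genes). Gars, glycyl-tRNA synthetase, was the 1 gene of all 103 to pass there, with 52.0, 53.1 and 51.2 FPKM in VHH-OD-PD-1-Fc libraries, against 34.5, 39.7 and 38.7 in VHH-PD-1-Fc libraries (0.46, SE 0.08, adjusted p = 0.0348). Of all genes, 0.538% were called higher there. None of the 19 was called there after median-of-ratios or quantile scaling, with only the compared groups fitted, with the replicate number as a block (0 called), with library quality weights, or when VHH-OD-PD-1-Fc entered as 1 pooled sample.

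**Figure D4:**
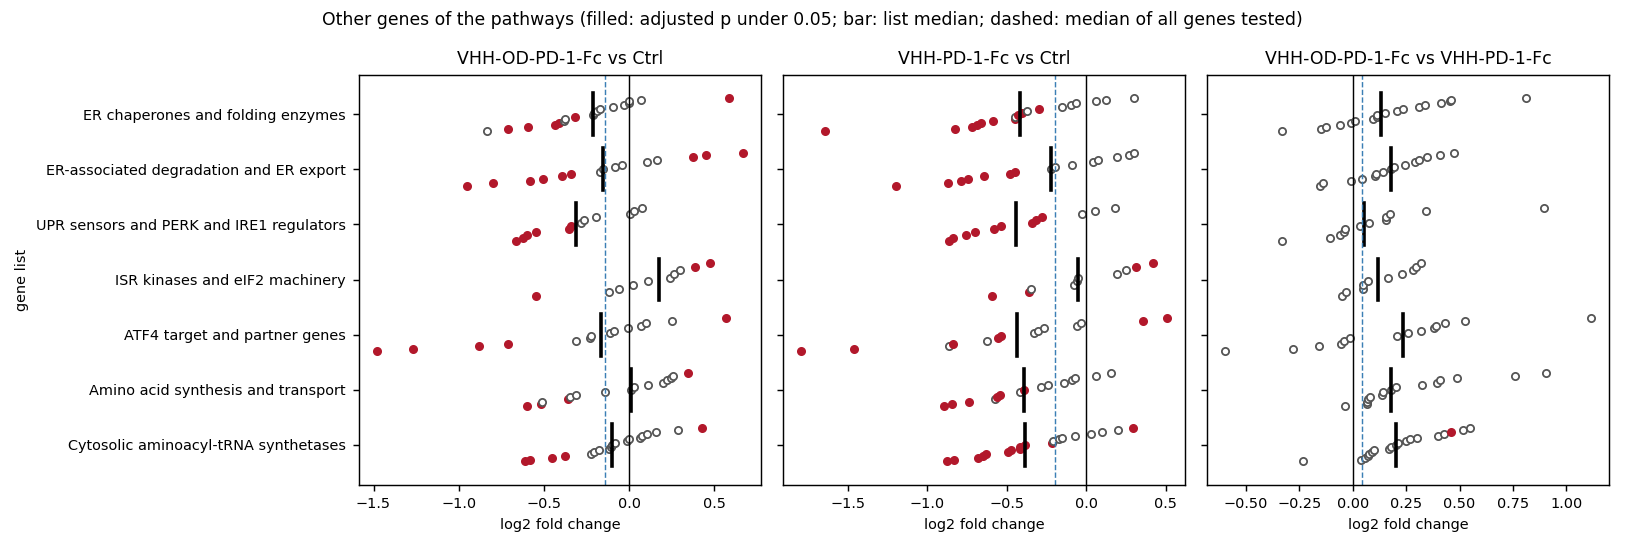
Log2 fold change of each tested gene of the 7 lists (rows) in 3 comparisons; filled red points passed an adjusted p under 0.05, black bars are list medians and the dashed line is the median of all genes. Red points lie mostly left of 0 in the comparisons with Ctrl, and in VHH-OD-PD-1-Fc relative to VHH-PD-1-Fc the medians lie between 0.05 and 0.23 with 1 red point (Gars).

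In the annotation deposited with the table, 6 of the 10 members belong to KEGG protein processing in the endoplasmic reticulum (168 genes) and 5 to the Gene Ontology unfolded protein response of the ER (51 genes). Without the members, 53 of 147 tested genes of the KEGG list were lower and 14 higher in VHH-PD-1-Fc relative to Ctrl (median -0.21, against -0.19 over all genes). Of 42 tested genes of the ontology list 19 were lower and 1 higher (median -0.35). The wider KEGG list stood near the background of 32.3% lower.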

How the data were processed

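Bulk poly(A) RNA-seq (paired reads of 150 bp) was deposited as 1 table of FPKM values for 12 libraries, which the authors made with fastp 0.22.0 and HISAT2 2.2.1, per the submitters' processing notes. Those notes name the human build GRCh38 although the symbols are mouse symbols, and the counting step is not given in the sources used here. FPKM are already scaled to transcript length and library total, so no count test was used. Low values fell within 0.05 of whole reads for 57.5% to 60.7%, too few to recover counts, and the depths quoted are estimates. The FPKM were taken as log2(FPKM + 1), a scale that understates changes of low genes, and genes with at least 1 FPKM in at least 3 libraries were kept. limma 3.58.1 in R 4.3.3 (one group-means fit over all 12 libraries, trend on, 8 residual degrees of freedom) tested 6 comparisons. Calls are two-sided with Benjamini-Hochberg adjusted p under 0.05 over all genes tested. The fit was tested on simulated data in which each gene had the same spread in all groups. That setting leaves out the unequal spread of the groups here.

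The members and lists were chosen with earlier results of these data known. Named list genes are up to 3 called genes of smallest p per direction, list and comparison, or up to 2 of largest change as values where none was called. Same-numbered libraries were correlated above 0.1 in 1 of 18 pairs (-0.154 to 0.184), so numbers were not used as pairs. Transcript lengths matched 96.3% of genes tested. Alternatives covered scaling, filter, pseudocount, length and GC, fitted groups, weights, pooling and left-out libraries.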

Additional observations from a re-analysis of the deposited data

How the results depend on the processing

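In the 1430 combinations of a gene, a comparison and an alternative, direction and side of the threshold were kept in 1281, the sign turned in 64, a call was gained in 63 and lost in 22. Two-sided limma calls of Hspa5 and Hsp90b1 in VHH-PD-1-Fc over Ctrl held in all 24 alternatives. The count of members called in VHH-PD-1-Fc over Ctrl was 2, but 7 with TPM scaling and 5 with the length and GC trend removed. Chac1 was also gained there with a pseudocount of 0.1 (limma adjusted p = 0.0467) or a mean FPKM of at least 5 (0.0486). Sdf2l1 was gained there with the replicate block (0.043). In VHH-OD-PD-1-Fc over Ctrl the count was 1, but 2 with TPM scaling or quantile normalization, 4 with only the compared groups fitted, 5 with quality weights, 0 with that group as 1 pooled sample and 3 without the 3 libraries that stood apart. In VHH-OD-PD-1-Fc over VHH-PD-1-Fc it was 0, but 1 with only the compared groups fitted and 2 without those 3 libraries. In VHH-OD-PD-1-Fc over VHH-OD-Fc it was 2, but 1 with no filter, 0 with the length and GC trend removed or as 1 pooled sample, 6 with only the compared groups fitted or with quality weights, and 4 without those 3 libraries. Quantile normalization added Chac1 to that count (limma adjusted p = 0.0497). With the replicate block, which the numbers do not justify as pairs, that count was 1 (Hspa5 adjusted p = 0.0558) and the whole-table count in VHH-OD-PD-1-Fc over VHH-PD-1-Fc was 28, against 120 without it. That whole-table count was also 46 with only the compared groups fitted, 11 with quality weights, 3 with 1 pooled sample and 524 without the 3 libraries. Leaving out 1 library at a time gave 2 to 6 members called in VHH-PD-1-Fc over Ctrl, 1 to 4 in VHH-OD-PD-1-Fc over Ctrl, 0 to 3 in VHH-OD-PD-1-Fc over VHH-PD-1-Fc and 0 to 3 in VHH-OD-PD-1-Fc over VHH-OD-Fc. In VHH-OD-Fc over Ctrl and the difference from additivity 0 members were called in all alternatives run.

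Signs that turned are given here with the log2 fold change after the turn, or with its range. Not all were of changes near 0. In the fit of all 12 libraries Sdf2l1 stood at -0.34 in VHH-OD-PD-1-Fc over Ctrl and Ddit3 at -0.29 in VHH-PD-1-Fc over Ctrl. TPM scaling turned the sign for VHH-OD-PD-1-Fc over VHH-OD-Fc Xbp1 at -0.00086, Atf4 at -0.15, Sdf2l1 at -0.13. Median-of-ratios scaling turned the sign for VHH-PD-1-Fc over Ctrl Xbp1 at 0.16, and for VHH-OD-PD-1-Fc over Ctrl Xbp1 at 0.11, Atf4 at 0.15, Ddit3 at 0.15, Herpud1 at 0.14, and for VHH-OD-PD-1-Fc over VHH-PD-1-Fc Xbp1 at -0.046, and for the difference from additivity Ddit3 at -0.043. Quantile normalization turned the sign for VHH-OD-PD-1-Fc over Ctrl Ddit3 at 0.10, Herpud1 at 0.028, and for VHH-OD-PD-1-Fc over VHH-PD-1-Fc Xbp1 at -0.013, and for VHH-OD-PD-1-Fc over VHH-OD-Fc Atf4 at -0.081, and for the difference from additivity Ddit3 at -0.061. Removing the length and GC trend turned the sign for VHH-OD-PD-1-Fc over VHH-OD-Fc Atf4 at -0.0033, Sdf2l1 at -0.17. Library quality weights turned the sign for VHH-PD-1-Fc over Ctrl Xbp1 at 0.15, and for VHH-OD-PD-1-Fc over Ctrl Xbp1 at 0.16, Atf4 at 0.055, Ddit3 at 0.13, Herpud1 at 0.16, and for the difference from additivity Ddit3 at -0.22. Leaving out the 3 libraries that stood apart turned the sign for VHH-PD-1-Fc over Ctrl Xbp1 at 0.10, Ddit3 at 0.0059, and for VHH-OD-PD-1-Fc over Ctrl Xbp1 at 0.18, Atf4 at 0.0071, Ddit3 at 0.054, Herpud1 at 0.15, Sdf2l1 at 0.0078, and for VHH-OD-PD-1-Fc over VHH-PD-1-Fc Hspa5 at -0.12, Trib3 at 0.13, and for the difference from additivity Ddit3 at -0.24, Trib3 at 0.0017. Leaving out 1 library turned the sign of some, with ranges for VHH-OD-Fc over Ctrl Atf4 at -0.20 to 0.021, Trib3 at -0.072 to 0.15, and for VHH-OD-PD-1-Fc over Ctrl Atf4 at -0.070 to 0.0096, Ddit3 at -0.11 to 0.054, Herpud1 at -0.14 to 0.15, Sdf2l1 at -0.55 to 0.0078, Xbp1 at -0.18 to 0.18, and for VHH-OD-PD-1-Fc over VHH-OD-Fc Atf4 at -0.038 to 0.18, and for the difference from additivity Ddit3 at -0.23 to 0.54, Trib3 at -0.51 to 0.18, and for VHH-OD-PD-1-Fc over VHH-PD-1-Fc Hspa5 at -0.12 to 0.32, Trib3 at -0.49 to 0.19, Xbp1 at -0.11 to 0.077, and for VHH-PD-1-Fc over Ctrl Xbp1 at -0.19 to 0.18. The cause was not tested. Depth limits low genes most, and read counts, which an interval would need, were not used here.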
